A study of Mus musculus with 4 samples.

Results

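The CXCR2 chemokine axis was described here as 5 genes of the 19001 symbols listed in all 4 deposited matrices, 3 ligand genes and 2 receptor genes. *Cxcl1*, *Cxcl2* and *Cxcl3* encode secreted chemokines that bind CXCR2, and *Cxcr2* encodes that receptor. *Cxcr4* encodes the receptor of CXCL12. The members were taken by symbol, without regard to their values. The question was which cell classes among the deposited cells of healing skin held the ligand transcripts and which held the receptors.

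The data were droplet single-cell RNA counts of 4 C57/BL6j mice that were 6 weeks old, with 1 library per mouse. Full-thickness wounds were made in the skin between the shoulders, and periwound skin was taken on day 7. In the hucMSC-Exosomes group (hucMSC-Exo 1 and hucMSC-Exo 2), 100 µg of exosomes from human umbilical cord mesenchymal stem cells was injected under the skin at the wound edge every 48 h. The control group (Control 1 and Control 2) received an equal volume of phosphate-buffered saline, so that every mouse was both wounded and injected. Groups followed the sample titles. File letters of the matrices group the 4 libraries differently, and the tissue field of the labels names gut segments where the cell type field names skin, so each direction between the groups rests on the titles.

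Neutrophils move along gradients of CXCR2 ligands from blood into inflamed tissue. The ligand transcripts are made on demand by macrophages, epithelium, stromal cells and neutrophils themselves under NF-κB, and they decay quickly. CXCR4 works the other way in this cell type, since CXCL12 holds neutrophils in the bone marrow through it and aged neutrophils regain it. In other leukocytes CXCR4 is a general homing receptor.

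The 3 ligand genes lie within 119836 bases of chromosome 5 on the forward strand, with *Cxcl3* at chr5:90786103-90789600, *Cxcl1* at chr5:90891241-90893115 and *Cxcl2* at chr5:90903871-90905938. *Cxcr2* (chr1:74153989-74161246, forward strand) and *Cxcr4* (chr1:128588199-128592293, reverse strand) lie on chromosome 1. Positions follow GENCODE on GRCm38 (mm10). The 120 bases before the RefSeq start of each ligand gene (GRCm38.p6, forward strand) are shown because all 3 hold the same pair of short motifs in the same order.
Cxcl1: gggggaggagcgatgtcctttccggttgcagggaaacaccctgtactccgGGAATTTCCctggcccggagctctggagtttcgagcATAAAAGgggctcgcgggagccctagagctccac
Cxcl2: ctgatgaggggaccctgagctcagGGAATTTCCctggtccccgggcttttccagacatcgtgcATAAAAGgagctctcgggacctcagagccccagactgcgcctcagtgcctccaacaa
Cxcl3: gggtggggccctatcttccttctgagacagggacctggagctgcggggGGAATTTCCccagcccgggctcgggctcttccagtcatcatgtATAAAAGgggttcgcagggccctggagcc
Capitals mark GGAATTTCC, which is of the kind that NF-κB binds, and ATAAAAG, which resembles the core promoter element where transcription machinery assembles. The stretches are chr5:90891125-90891244, chr5:90903779-90903898 and chr5:90785981-90786100. GGAATTTCC began 70, 96 and 72 bases before the RefSeq start of *Cxcl1*, *Cxcl2* and *Cxcl3*, and ATAAAAG began 34, 57 and 29 bases before it. The stretches of *Cxcl1* and *Cxcl2* end past the GENCODE starts given above, furthest for *Cxcl2* (90903898 against 90903871). The distances therefore depend on the start used. Searched on both strands in the 250 bases before 32851 annotated starts, GGAATTTCC was present in 94 windows (0.286%) and ATAAAAG in 1588 (4.83%). The same search of the 250 bases before *Cxcr2* matched neither motif, and that before *Cxcr4* found ATAAAAG 29 bases before the start. Before *Ppbp*, a further CXCR2 ligand gene on chromosome 5, it found ATAAAAG on the opposite strand and no GGAATTTCC. A match is a description of letters and shows no binding.

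The 4 libraries held 1098 to 2422 cells, and 6443 of 7178 cells were kept after leaving out cells with fewer than 200 or more than 3000 detected genes or over 10% mitochondrial counts. Kept cells had a median of 3747 to 4392.5 unique molecular identifiers (UMIs) per library. These are far fewer cells than the study states for the same libraries. The kept cells were clustered without 56 chemokine and chemokine receptor genes, so that no member shaped the classes. Nearly all clusters were of leukocytes, with 47 fibroblast-like cells and no cluster named after keratinocytes or endothelium. The fibroblast-like cluster scored 3.891 on the fibroblast list and 3.371 on the keratinocyte list, so its name does not separate these cell types. With no upper limit on genes per cell, a keratinocyte cluster of 38 cells was named. Libraries shared 6 cell barcodes. Levels are in CPM. In each library the UMIs of a gene were divided by all UMIs of the class and multiplied by 1000000. Shares are of cells with at least 1 UMI. Each UMI counts a transcript end, so CPM were not divided by gene length. Values of the 4 libraries follow the order Control 1, Control 2, hucMSC-Exo 1 and hucMSC-Exo 2. A class with fewer than 10 cells in a library was left out of that library's mean.

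Neutrophil-like cells, 1038 in all, carried all 8 neutrophil markers that every file lists, among them *S100a8*, *S100a9* and *Csf3r*. They numbered 56, 347, 93 and 542 and made up 5.88%, 16.7%, 6.57% and 27.1% of kept cells. Their 2 clusters had a median of 2106 and 2048 UMIs. Control 1 and hucMSC-Exo 1 therefore gave few neutrophil-like cells, and hucMSC-Exo 2 gave most of them.

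*Cxcl2* was the most abundant ligand transcript in most myeloid classes. It reached 11159, 24065, 31973 and 17340.1 CPM in neutrophil-like cells, a mean of 21134 ± 8944 CPM (SD, n = 4). The lowest of these libraries was Control 1, with 56 cells, and the highest was hucMSC-Exo 1. Basophil-like cells stood at 30269, 27349 and 24414 CPM in the 3 libraries with at least 10 of them, a mean of 27344 ± 2928 CPM (SD, n = 3). They were above the neutrophil-like cells in 2 of 3 libraries, and the difference between these neighbours was within the SD. Among macrophages, a cluster led by *Procr*, *Ednrb* and *Spic* held 7926, 17344 and 9849 CPM, and osteoclast-like macrophage-like cells, led by *Arg1*, *Pdpn* and *Gpnmb*, held 17999.7, 5804, 7821 and 5366 CPM. Control 1 had 21 osteoclast-like cells and the highest of these values. The osteoclast-like name fell on other cells in other clusterings. At a higher clustering resolution it fell on 478 cells led by *Ednrb* and *Spic*, with *Procr* also among their leading genes. There, 262 cells with *Arg1*, *Pdpn* and *Gpnmb* among their leading genes stayed unnamed. At a lower resolution no cluster had the name. With no upper limit on genes per cell the name fell on 225 cells led by *Ctsk*, *Slc9b2* and *Acp5*. Contrasts between *Procr*-led and osteoclast-like cells therefore describe the clustering used here. Monocyte-like cells followed at 2602, 6244, 9728 and 6501 CPM, and the macrophage-like cluster led by *Ccl8* and *Folr2*, genes of tissue-resident macrophages, was lowest among the phagocytes at 3178, 1698, 1118 and 934 CPM. The order of neutrophil-like above *Procr*-led cells held in 3 of 3 libraries, and that of monocyte-like above *Folr2*-led cells in 3 of 4.

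*Cxcl2* was found in most neutrophil-like and *Procr*-led cells. A UMI was present in 75.0, 94.8, 94.6 and 93.7% of neutrophil-like cells and in 95.3, 98.7 and 92.2% of *Procr*-led cells of the 3 libraries that held enough of them. The background was set by CD4+ T cell-like cells, a class not known for this ligand, in which 1.45, 10.9, 6.48 and 7.09% had a UMI at a median of 4008 UMIs per cell. After each cell was thinned to 1000 UMIs, which left out 34 neutrophil-like and 2 CD4+ T cell-like cells, the shares over all libraries were 91.4% and 2.51%. Within the class the level varied widely. The median neutrophil-like cell held 28 UMIs of *Cxcl2* and the highest 453, and the 104 cells with the most held 36.8% of them. The median was 55 in basophil-like, 66 in *Procr*-led and 19 in osteoclast-like cells, where the highest cell held 1207.

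*Cxcl3* was divided differently among the same classes. Its highest mean was in *Procr*-led macrophages, at 2085, 3177 and 1411 CPM, a mean that leaves out Control 1. They were above the neutrophil-like cells in 2 of 3 libraries. In hucMSC-Exo 2 they were below both the neutrophil-like and the osteoclast-like cells. Neutrophil-like cells held 129, 1911, 1579 and 1497 CPM, osteoclast-like cells 786, 1520.0, 1130.4 and 1616 CPM and monocyte-like cells 118, 1733, 1124 and 1250.1 CPM. Neutrophil-like and osteoclast-like means, 1279 ± 787 CPM (SD, n = 4) and 1263 ± 381 CPM (SD, n = 4), did not differ beyond their spread. Control 1 was the lowest library in each of these 3 classes, with *Cxcl3* in 3 of its 56 neutrophil-like cells. Basophil-like cells, the highest for *Cxcl2*, held 376, 159 and 0 CPM, and *Folr2*-led macrophages 3.65, 40.9, 0 and 7.23 CPM. In the 39 mast cell-like cells no UMI of *Cxcl3* was counted, which allows a share of up to 7.69%.

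*Cxcl1* was lower than *Cxcl3* over all kept cells in 3 of 4 libraries, at 125, 152 and 51.5 CPM against 779.9, 765 and 620.0 CPM, but not in Control 1, at 112 against 43.9 CPM. Osteoclast-like cells held 1655, 389, 489 and 215 CPM, a mean of 687 ± 655 CPM (SD, n = 4), and *Procr*-led macrophages 278, 534 and 70.5 CPM. The highest value came from the 21 osteoclast-like cells of Control 1, and over all libraries the 44 highest of 434 cells held 88.0% of the class's *Cxcl1* UMIs, 278 of them in 1 cell. Fibroblast-like cells, 47 in all, held 357, 9.15 and 668 CPM in the 3 libraries with at least 10, a wider range than the gap to either class. Neutrophil-like cells held 34.3, 105, 28.3 and 70.6 CPM. The share of them with a UMI after thinning was 0, 10.98, 1.11 and 3.25%, against 2.90, 4.98, 1.87 and 2.13% of CD4+ T cell-like cells. These shares were higher in neutrophil-like cells in 2 of 4 libraries, so by shares *Cxcl1* in neutrophils was not separated from the level of free RNA. In CPM the mean was 59.6 ± 35.6 (SD, n = 4) in neutrophil-like cells. CD4+ T cell-like cells held 16.0 to 39.4 CPM, a mean of 24.6 ± 10.3 (SD, n = 4). The part of free RNA in these levels was not tested.

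Summed over all libraries, the 3 ligands came in different proportions from different classes. Of all ligand UMIs of basophil-like cells, 0.155% were *Cxcl1*, 98.9% *Cxcl2* and 0.929% *Cxcl3*. In neutrophil-like cells the same shares were 0.350%, 92.5% and 7.13%. *Procr*-led macrophages had 2.28%, 81.7% and 16.0%, and osteoclast-like cells 5.24%, 78.7% and 16.1%. Monocyte-like cells had 0.613%, 82.9% and 16.5%. *Folr2*-led macrophages had 3.89%, 95.5% and 0.623%, with less *Cxcl3* than any other phagocyte cluster. Single libraries spread widely around these sums, and several classes overlapped. The *Cxcl3* share was 1.14 to 7.92% in neutrophil-like, 3.85 to 22.5% in osteoclast-like and 4.32 to 21.5% in monocyte-like cells. The *Cxcl1* share was 1.71 to 8.65% in *Folr2*-led and 2.99 to 8.10% in osteoclast-like cells. *Cxcl1*, *Cxcl2* and *Cxcl3* are paralogs, and whether reads were shared between them was not tested.

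**Figure D1:**
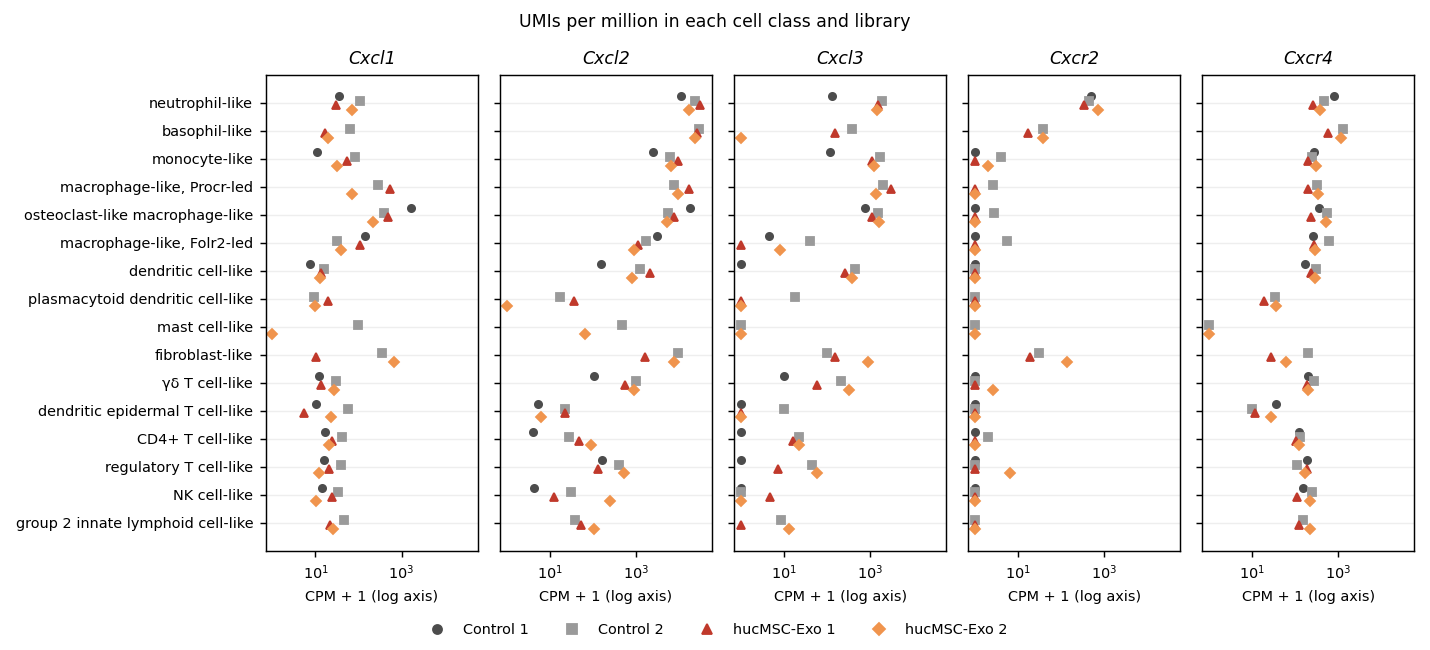
Each panel shows 1 gene, with cell classes on the y axis and CPM plus 1 on a log axis, and each marker is 1 library. *Cxcl2* spans the neutrophil-like, basophil-like, macrophage-like and monocyte-like classes, while *Cxcr2* is at 345 to 723 CPM in neutrophil-like cells and at or near 0 in most other classes.

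The class that supplied most of a ligand's UMIs differed between mice. Neutrophil-like cells held 13.2%, 35.4%, 15.9% and 51.9% of all *Cxcl2* UMIs in kept cells, *Procr*-led macrophages 7.62%, 17.2%, 53.4% and 12.0%, osteoclast-like cells 35.4%, 18.6%, 13.0% and 6.79% and *Folr2*-led macrophages 35.3%, 2.06%, 0.741% and 1.59%. The leading source was thus osteoclast-like and *Folr2*-led macrophages in Control 1, neutrophil-like cells in Control 2 and hucMSC-Exo 2, and *Procr*-led macrophages in hucMSC-Exo 1. For *Cxcl3*, *Procr*-led macrophages held 4.29%, 28.0%, 70.5% and 12.5% and osteoclast-like cells 72.9%, 30.1%, 13.5% and 14.8%. In hucMSC-Exo 2 neutrophil-like cells led for *Cxcl3*, with 32.5%, followed by monocyte-like cells with 21.0%. For *Cxcl1*, osteoclast-like cells held 60.1%, 48.1%, 29.4% and 23.8% and neutrophil-like cells 0.746%, 5.98%, 0.509% and 18.5%. *Procr*-led macrophages held 0%, 23.4%, 59.6% and 7.51% of *Cxcl1* and were its leading source in hucMSC-Exo 1. The 2 libraries of a group did not share a leading source for *Cxcl2* in either group. These shares follow the numbers of cells as well as their levels. They describe the kept cells, in which no cluster was named after keratinocytes or endothelium, and not whole skin.

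**Figure D2:**
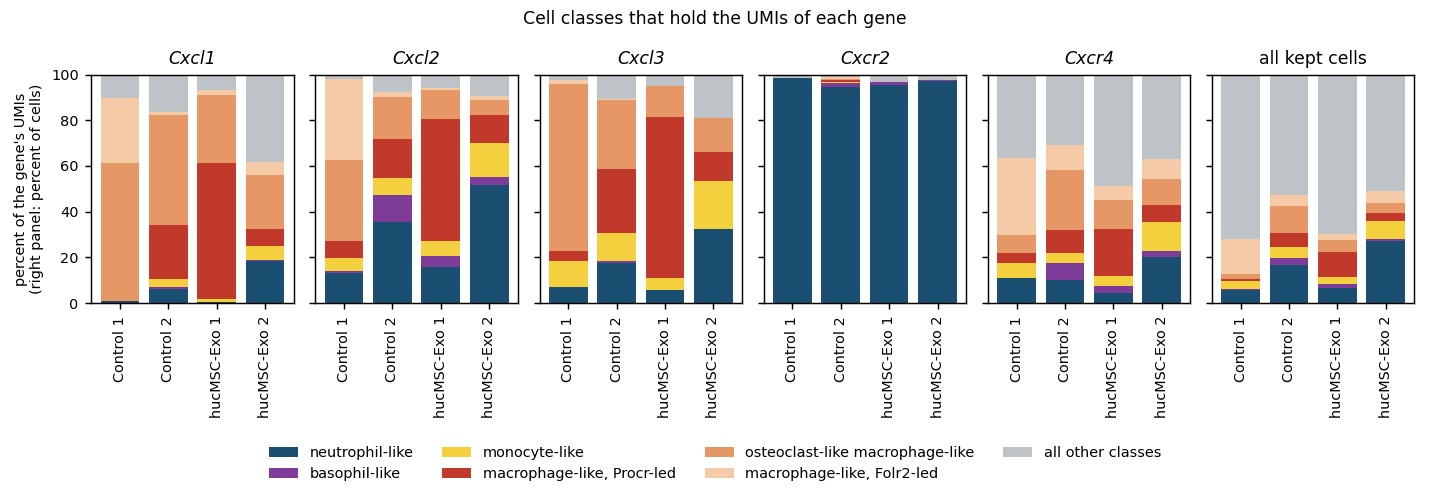
Stacked bars give the percent of each gene's UMIs held by each group of cell classes in the 4 libraries, and the right panel gives the percent of kept cells. Neutrophil-like cells hold 94.4% to 98.4% of *Cxcr2* in every library but 13.2% to 51.9% of *Cxcl2*.

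A smaller source of *Cxcl2* lay among lymphocytes. γδ T cell-like cells held 104, 999.96, 578 and 932 CPM, above CD4+ T cell-like cells (3.20, 26.6, 46.1 and 90.9 CPM) in 4 of 4 libraries, and 14.4, 29.3, 15.7 and 21.3% of them had a UMI. Most came from a cluster of 539 cells led by *Blk*, *Il17f* and *Il17a*, genes of γδ T cells that make interleukin 17, where *Cxcl2* was at 974 CPM and *Cxcl3* at 292 CPM. In this cluster 57 cells had at least 5 *Cxcl2* UMIs. Their macrophage markers summed to 113 CPM, against 175 CPM in the 421 cells with no *Cxcl2* and 17329 CPM in mononuclear phagocyte-like cells. Their γδ T markers summed to 10104 CPM, and 4 of the 57 were among the highest doublet scores. Their neutrophil markers summed to 1401 CPM, against 59.5 CPM in the cells with no *Cxcl2*, and the part of mixed droplets in these UMIs was not tested. In dendritic epidermal T cell-like cells, the resident γδ T cells of mouse epidermis, *Cxcl2* was at 4.52, 21.7, 22.1 and 5.39 CPM.

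*Cxcr2* was nearly confined to neutrophil-like cells. These held 514, 462, 345 and 723 CPM, a mean of 511 ± 158 CPM (SD, n = 4), and 98.4%, 94.4%, 95.3% and 97.2% of all *Cxcr2* UMIs. A UMI was found in 55.4, 47.0, 35.5 and 60.9% of them and, after thinning, in 35.2, 28.8, 27.8 and 42.1%. The median neutrophil-like cell held 1 UMI and the highest 13. All other kept cells together held 51 UMIs, in 31 of 5405 cells. In mononuclear phagocyte-like cells (monocyte-like cells with the macrophage-like and osteoclast-like clusters) there were 11 UMIs in 8 of 1517 cells, and in lymphocyte-like cells 6 UMIs in 4 of 2454. The lymphocyte-like cells are the named T cell, NK cell and innate lymphoid clusters, without an unnamed *Gcsam*-led cluster of 712 cells. No UMI was counted in 292 NK cell-like or 310 dendritic cell-like cells, which allows shares of up to 1.03% and 0.968%. Taking 3 counts per library as the floor, *Cxcr2* in neutrophil-like cells was at least 270.0-fold higher than in phagocyte-like cells in Control 1, at least 248-fold in hucMSC-Exo 1 and at least 637-fold in hucMSC-Exo 2, and in Control 2, with 10 phagocyte UMIs, 194-fold higher.

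Outside neutrophils, *Cxcr2* reached more than 1.42 CPM as a class mean in fibroblast-like and basophil-like cells. Fibroblast-like cells held 30.6, 18.3 and 141 CPM, from 7 of 47 cells, and basophil-like cells 37.6, 15.9 and 36.9 CPM, from 10 of 102. Transcripts of *S100a8* and *S100a9*, among the most abundant of neutrophils, were measured beside it. The 7 fibroblast-like cells with *Cxcr2* held 41147 CPM of them, with a median of 287 UMIs per cell, against 5243 CPM in the other 40, and 3 of the 7 and 14 of the 40 had high doublet scores. The 10 basophil-like cells held 6268 CPM, with a median of 1 UMI, against 133 CPM in the other 92 and 122775 CPM in neutrophil-like cells with *Cxcr2*, and 0 of the 10 had high doublet scores. In 2 γδ T cell-like cells and 1 regulatory T cell-like cell with *Cxcr2*, all 3 were among the highest doublet scores, with medians of 218.5 and 216 UMIs over 8 neutrophil markers.

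*Cxcr4* was spread over many classes. Basophil-like cells had the highest level, 1327, 572 and 1161 CPM, above neutrophil-like cells in 3 of 3 libraries. Neutrophil-like cells held 823, 465, 260.3 and 389 CPM, with the highest value in Control 1 and the lowest in hucMSC-Exo 1. Osteoclast-like cells held 355, 563, 239 and 534 CPM, *Folr2*-led macrophages 266, 607, 271 and 295 CPM and *Procr*-led macrophages 320.5, 202 and 346 CPM. From neutrophil-like to *Procr*-led cells, neighbours in this order did not differ beyond their spread. Dendritic cell-like cells held 167, 310.5, 232 and 287 CPM, γδ T cell-like cells 199, 273, 194 and 204 CPM and CD4+ T cell-like cells 122, 132, 105 and 126 CPM. Resident T cells were low. Dendritic epidermal T cell-like cells held 36.2, 9.28, 11.1 and 26.9 CPM, and an unnamed cluster of 712 cells led by *Gcsam*, whose best marker list was also that of these cells, 5.86, 2.02, 10.0 and 5.69 CPM. In mast cell-like cells no *Cxcr4* UMI was counted in 39 cells at a median of 1243 UMIs.

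To set neutrophils against the other main source of ligands, the UMIs of neutrophil-like and of mononuclear phagocyte-like cells were summed per library and compared with library as a block (quasi-likelihood test of edgeR, adjusted over 8464 genes after Benjamini and Hochberg). These populations differ in most genes: 56.3% of genes passed an adjusted p of 0.05, 25.4% higher and 30.8% lower in neutrophil-like cells, and 81.8% of the 33 tested genes that had been left out of the clustering passed. Against this background 4 of the 5 members passed. *Cxcl2* was higher in neutrophil-like cells, by 1.83 on the log2 scale (standard error, SE, 0.23, edgeR adjusted p = 2.12e-09), and *Cxcr4* was higher by 0.75 (SE 0.21, edgeR adjusted p = 0.00245). *Cxcr2* passed as well, with the bounds given above as its size. *Cxcl1* was lower, at -1.21 (SE 0.32, edgeR adjusted p = 0.00128). *Cxcl3* was 0.51 higher (SE 0.23), with an edgeR adjusted p = 0.0529. The median of all genes was -0.24 on the same scale.

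*Cxcl2* was above the phagocyte-like level in 4 of 4 libraries, since the latter held 5250.4, 5820.4, 12134 and 5454 CPM. For *Cxcl1* the phagocyte-like level was 303, 256, 423 and 76.0 CPM, and hucMSC-Exo 2, at 76.0 against 70.6 CPM, showed almost no gap. Without hucMSC-Exo 1 the *Cxcl1* difference was -0.70 with an edgeR adjusted p = 0.109. With no upper limit on genes per cell it was 0.46. A cluster of 689 cells with macrophage markers then stayed unnamed and was not in the population, and its part in this change was not tested. The makeup of the phagocyte-like cells differed between libraries, with *Folr2*-led macrophages at 69.2%, 16.8%, 13.4% and 24.8% of them and *Procr*-led macrophages at 3.37%, 22.6%, 48.2% and 15.1%.

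Neutrophil-like cells were clustered again without the chemokine and receptor genes, which gave 10 subclusters of 8 to 175 cells. *Cxcr2* was highest in 175 cells led by *Fam162a*, *Retnlg* and *Hk2*, with the glucose transporter gene *Slc2a3* also among the leading genes. It held 1077 and 1151 CPM in Control 2 and hucMSC-Exo 2, and 142 of the 175 cells came from hucMSC-Exo 2. The same cells held 462 and 262 CPM of *Cxcr4* and 14896 and 14391 CPM of *Cxcl2*. hucMSC-Exo 1 had 5 such cells, at 200.2 CPM of *Cxcr2*. Cells led by *Gclm* and *Hmox1*, genes of the oxidative stress response, held 296, 200.1 and 344 CPM in Control 2, hucMSC-Exo 1 and hucMSC-Exo 2.

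Among the subclusters over 100 cells, *Cxcl2* was highest in *Nfkbiz*-led or *Gclm*-led cells in each of 3 libraries. Cells led by *Nfkbiz* and *Nlrp3*, of which the first is an NF-κB cofactor and the second an inflammasome sensor, held 31663, 43128 and 30069.5 CPM in Control 2, hucMSC-Exo 1 and hucMSC-Exo 2. *Gclm*-led cells held 32862, 38582 and 19525 CPM. *Bcl2a1d*-led cells held 24280, 33161 and 22547 CPM and were above the *Gclm*-led cells in hucMSC-Exo 2. Cells led by *Bag1* were lowest of the 6 subclusters over 100 cells, at 6079.6, 8512 and 12676 CPM, and their *Cxcr4* was at 1511, 501 and 566 CPM, the highest of the subclusters over 100 cells in Control 2 and hucMSC-Exo 1. In hucMSC-Exo 2 cells led by *Bcl2a1d*, a survival gene, were higher, at 689.7 CPM. In the *Nfkbiz*-led cells *Cxcr4* was at 186, 123 and 404 CPM and in *Gclm*-led cells at 365, 120.1 and 110.2 CPM. In each of these 3 libraries the *Bag1*-led cells were thus below both of these subclusters in *Cxcl2* and above both in *Cxcr4*, a contrast chosen after the values were seen. In hucMSC-Exo 1 the *Cxcr4* values rest on few UMIs. The 10 *Bag1*-led cells held 8, the 21 *Nfkbiz*-led cells 5 and the 26 *Gclm*-led cells 6. The 11 *Bcl2a1d*-led and 12 *Syne1*-led cells held 10 each. Of the 56 neutrophil-like cells of Control 1, 31 fell in 1 subcluster of 55 cells led by *Nsmce4a*, so Control 1 gave no value for most subclusters. A subcluster of 8 cells led by *Icos* and *Cd3e* carried T cell genes.

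**Figure D3:**
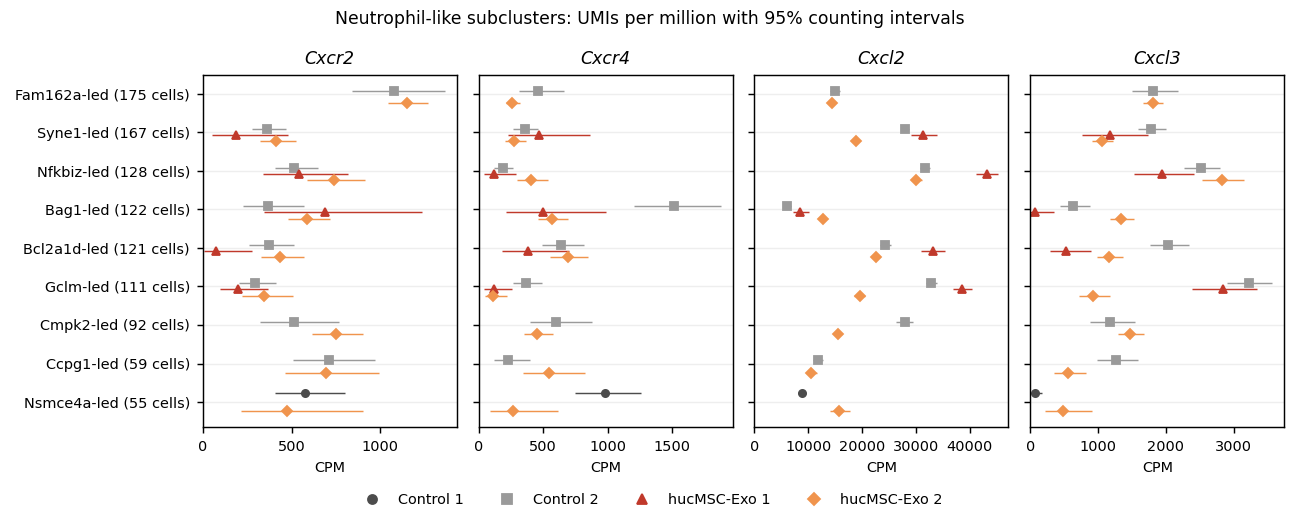
The larger subclusters of neutrophil-like cells are listed on the y axis, with the CPM of *Cxcr2*, *Cxcr4*, *Cxcl2* and *Cxcl3* on the x axes. Each marker is 1 library with at least 10 cells, with its exact 95% counting interval. *Cxcr2* is highest in the *Fam162a*-led cells (1077 and 1151 CPM in Control 2 and hucMSC-Exo 2), and *Cxcl2* is highest in the *Gclm*-led cells of Control 2 and in the *Nfkbiz*-led cells of hucMSC-Exo 1 and hucMSC-Exo 2.

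Receptors and ligands were then counted in the same cells after thinning to 1000 UMIs. *Cxcr4* was found in 63.2%, 28.9%, 32.0% and 27.7% of neutrophil-like cells with *Cxcr2*, and in 37.1%, 26.7%, 13.8% and 27.1% of those without. The 2 receptors therefore occurred together in 109 cells and did not mark separate cells at this depth. *Cxcl2* was found in 52.6%, 89.7%, 92.0% and 94.1% of cells with *Cxcr2* and in 82.9%, 93.3%, 96.9% and 90.8% of those without, higher without the receptor in 3 of 4 libraries. *Cxcl3* was found more often in cells with *Cxcl2* than without it, in 43.4% against 15.4% in Control 2, 43.0% against 0% in hucMSC-Exo 1 and 40.7% against 14.6% in hucMSC-Exo 2. The 0% in hucMSC-Exo 1 rests on 4 cells. Control 1, at 2.56% against 0%, had 1 cell with both ligands. Among mononuclear phagocyte-like cells the same shares in the 4 libraries were 3.88% against 0.980%, 48.2% against 10.2%, 49.8% against 6.58% and 43.6% against 5.56%.

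The hucMSC-Exosomes group was compared with the control group in neutrophil-like, mononuclear phagocyte-like and lymphocyte-like cells, with 2 libraries per group. The unnamed *Gcsam*-led cluster, with 276, 133, 138 and 165 cells in the 4 libraries, was not among the lymphocyte-like cells. None of the members passed in any population. By edgeR's quasi-likelihood test, 0 of 3970, 0 of 8763 and 0 of 9930 genes had an adjusted p under 0.05 (0.0% called in each), with 48, 99 and 345 genes at an unadjusted p under 0.05. DESeq2 called 0, 0 and 2 genes.

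In neutrophil-like cells *Cxcr4* was at 823, 465, 260.3 and 389 CPM, and both control libraries were above both hucMSC-Exosomes libraries. Its log2 change was -0.75 (SE 0.38, edgeR adjusted p = 0.999, unadjusted p = 0.0690), and over 12 alternatives it stayed between -0.93 and -0.50. Groups that do not overlap were seen for 25.5% of all genes tested in these cells. *Cxcr2*, at 514, 462, 345 and 723 CPM, had a log2 change of 0.30 (SE 0.40), and the lowest and the highest library both belonged to the hucMSC-Exosomes group. *Cxcl2* had a log2 change of 0.62 (SE 0.58), which was 0.021 without hucMSC-Exo 1, 0.075 without Control 1, 1.57 without Control 2 and 1.11 without hucMSC-Exo 2. The values were 0.59 (SE 0.78) for *Cxcl3* and -0.48 (SE 0.54) for *Cxcl1*. Without Control 1, which had 56 cells, the *Cxcl3* value was -0.30. The median log2 change of all genes was 0.02.

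Over the UMIs of all kept cells of a library, *Cxcr2* was at 12.8, 34.8, 9.91 and 99.96 CPM. The 2 libraries with the most neutrophil-like cells, Control 2 and hucMSC-Exo 2, were the highest, and they belong to different groups. A difference in *Cxcr2* between whole libraries and a difference in the share of neutrophils cannot be told apart without the class values above.

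In mononuclear phagocyte-like cells *Cxcl2* was at 5250.4, 5820.4, 12134 and 5454 CPM, with a log2 change of 0.76 (SE 0.41), which was -0.01 without hucMSC-Exo 1, the library with the most *Procr*-led macrophages. *Cxcl3* was at 121, 1478, 2046 and 1027 CPM (log2 change 1.03, SE 0.90). This was 0.16 without Control 1, 0.37 without hucMSC-Exo 1 and 3.76 without Control 2. *Cxcl1* was at 303, 256, 423 and 76.0 CPM (-0.06, SE 0.67). *Cxcr4* was at 290.1, 455, 219 and 359 CPM (-0.32, SE 0.34). *Cxcr2* had too few counts to be tested in these cells. The groups overlapped for every member tested here, and 23.6% of all genes tested had groups that did not overlap.

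In lymphocyte-like cells *Cxcl2* was at 58.2, 374, 241 and 602 CPM (log2 change 0.98, SE 0.76) and *Cxcl3* at 3.06, 77.7, 24.2 and 183 CPM (1.30, SE 1.11). *Cxcl1* was at 13.5, 36.3, 15.6 and 21.7 CPM (-0.44, SE 0.44). *Cxcr4*, at 154, 181, 135 and 179 CPM, was the most even member, with a log2 change of -0.04 (SE 0.22). The groups overlapped for these 4 members, and 31.9% of all genes tested had groups that did not. Control 1 was the lowest library for *Cxcl2* and hucMSC-Exo 2 the highest, and the *Cxcl2* change was 0.20 without Control 1, 0.15 without hucMSC-Exo 2, 1.52 without hucMSC-Exo 1 and 2.97 without Control 2. Without the filter on low counts *Cxcl2* and *Cxcl3* passed (0.99 and 1.31, edgeR adjusted p = 0.00179 and 7.03e-05).

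**Figure D4:**
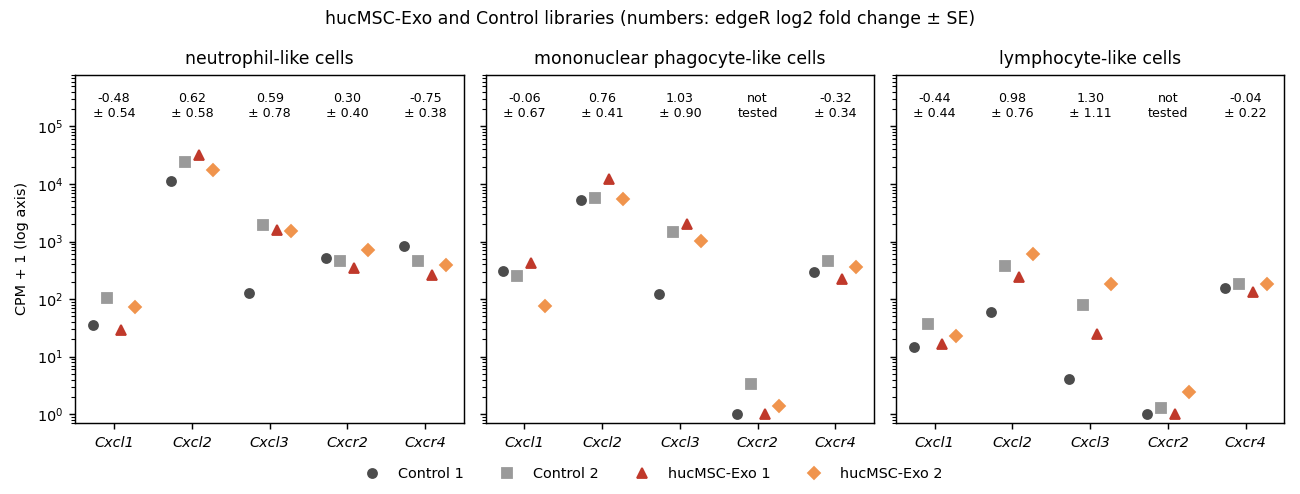
Panels show the neutrophil-like, mononuclear phagocyte-like and lymphocyte-like cells, with the 5 genes on the x axis and CPM plus 1 on a log y axis, 1 marker per library, and edgeR's log2 change ± SE above. In neutrophil-like cells *Cxcr4* (-0.75 ± 0.38) is the member whose control libraries (823 and 465 CPM) lie above both hucMSC-Exo libraries (260.3 and 389 CPM).

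Of 38 other genes of the pathway, 28, 34 and 27 were tested between the groups in neutrophil-like, phagocyte-like and lymphocyte-like cells, and 0 passed in either direction, with 0, 0 and 2 at an unadjusted p under 0.05 (edgeR). The 2 were in lymphocyte-like cells, *Il17a* with a log2 change of 1.03 (SE 0.43) and *Nfkbia* with 0.57 (SE 0.22), and both had an adjusted p = 0.9996 (edgeR). The medians of the tested list genes were -0.14, -0.08 and -0.07, beside 0.02, -0.01 and -0.01 for all genes.

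Levels of these genes placed the axis in its surroundings. The other CXCR2 ligands were scarce in these leukocyte populations. *Cxcl5* was at 0 to 22.1 CPM and *Ppbp* at 0 to 27.8 CPM in the 3 populations and 4 libraries. *Cxcl12*, the CXCR4 ligand, was at 0 to 10.0 CPM. *Mif*, an alternative ligand of both receptors, was broad, at 711, 504, 599.7 and 679.9 CPM in neutrophil-like and 416, 376, 362 and 384 CPM in phagocyte-like cells. *Pf4*, a platelet and macrophage chemokine, was at 1292, 1352, 1492 and 1105 CPM in phagocyte-like cells and at most 17.1 CPM in neutrophil-like cells, and of the 4 tested ligands of the list it alone passed between these populations (log2 change -6.48, SE 0.32, edgeR). *Cxcr1*, the receptor most related to *Cxcr2*, is listed in the files of 3 libraries, where 42 of 43, 2 of 2 and 32 of 35 UMIs in kept cells of Control 2, hucMSC-Exo 1 and hucMSC-Exo 2 were in neutrophil-like cells.

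Other chemoattractant receptors of neutrophils were also detected in these cells. *Fpr1* and *Fpr2*, receptors of formyl peptides, were at 94.3, 305, 299.9 and 297 CPM and 214, 339, 283 and 397 CPM, and *Ptafr*, the receptor of platelet-activating factor, at 634, 757, 639 and 782 CPM. *Csf3r*, the receptor of granulocyte colony-stimulating factor, was at 1294, 893, 702 and 1038 CPM. Inducers of the ligands were divided between populations. *Il1b* was at 9557, 5212, 6105 and 4888 CPM in neutrophil-like and 1494, 1952, 1639 and 2316 CPM in phagocyte-like cells. *Il17a* was at 303, 609.5, 583 and 1221 CPM in lymphocyte-like cells and at most 1.19 CPM in the other 2 populations.

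The genes whose pattern was most like that of each member were read from log2(CPM + 1) over 66 sums of 19 cell classes and 4 libraries, among 7334 genes. The sums of 1 library share its depth and free RNA, and the correlations are a description. For *Cxcl2* they were *Clec4d*, *Clec4e* and *Nlrp3* (Pearson's r of 0.890, 0.875 and 0.872), and for *Cxcl3* *Adam8*, *Ccr1* and *Slc7a11* (0.814, 0.784 and 0.775). *Cxcl2* and *Cxcl3* correlated with each other at 0.744 and with *Cxcl1* at 0.537 and 0.466. *Cxcl1* stood apart, with *Pdpn*, *Apoc2* and *Slc11a1* at 0.678, 0.650 and 0.616. *Cxcr2* was most like *Mirt2*, *G0s2* and *Hcar2* (0.895, 0.859 and 0.840), and *Cxcr4* like *Pde4b*, *Trps1* and *Adam8* (0.849, 0.789 and 0.769).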

How the data were processed

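Single-cell RNA was measured in periwound skin of 4 mice with the 10x Genomics 3′ kit. The authors made the deposited counts, as UMIs without any normalization, with Cell Ranger 6.1.2 on mm10, per the labels. The paper names DoubletFinder for its own filtering, and whether the deposited cells had passed it is not given in the sources used here.

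Kept cells had 200 to 3000 genes and no more than 10% of mitochondrial UMIs. They were merged without batch correction, scaled to 10000 and log-transformed, and clustered with scanpy 1.11.5 and leidenalg 0.10.2 (2000 variable genes, 30 principal components, 15 neighbours, resolution 1, seed 0). A cluster was named after the marker list with the highest mean score if at least 3 of its markers were found in at least 10% of cells and no other list had more markers among the 10 leading genes. The 56 chemokine and chemokine receptor genes were left out of the clustering. One of them, *Xcr1*, stands in the dendritic cell marker list used for naming. Neutrophil-like cells were clustered again in the same way. No doublets were removed, and leaving out the 10% of cells with the highest simulated-doublet scores in each library is an alternative.

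UMIs were summed per library and population, and libraries with fewer than 10 cells were left out. The sums were compared with edgeR 4.0.16 in R 4.3.3 (quasi-likelihood test, TMM, filterByExpr, Benjamini-Hochberg adjustment at 0.05), with DESeq2 1.42.0 as an alternative. The edgeR fit was tested on simulated data, and DESeq2 was not. From the comparison of neutrophil-like with phagocyte-like cells, genes that had taken part in the clustering were not read. Shares have 95% exact Clopper-Pearson intervals in the tables behind the text, and a count of 0 has a limit of 3 counts. Intervals and limits cover counting error only. Thinning drew 1000 UMIs per cell without replacement. Libraries are separate mice, and p-values between the groups measure the spread between 2 of them per group. Those between neutrophil-like and phagocyte-like cells measure the spread of differences within the 4 libraries.

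The members, the pathway list, the marker lists and the tests were chosen with earlier results of these data known. The genes named are the 5 members, *Cxcl5*, *Ppbp*, *Cxcl12*, *Mif*, *Cxcr1* and up to 5 list genes past the threshold per comparison, the 3 genes most like each member, and leading genes of clusters. Other pathway genes given as levels, and *Il17a* and *Nfkbia*, were chosen after their values were seen. *Cxcr1* is missing from the gene list of Control 1. Promoter sequences were taken from RefSeq (GRCm38.p6), and *Cxcl5* had no entry.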

Additional observations from a re-analysis of the deposited data

Results flagged for a closer look

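Cells left out of the comparisons held members and *Cxcl12* as well. The values below were singled out because both hucMSC-Exosomes libraries were above both control libraries, and the share of all genes that do so in these cells was not computed. In cells with over 10% mitochondrial UMIs, *Cxcl3* was at 14.2 and 185 CPM in Control 1 and Control 2 and at 348 and 343 CPM in hucMSC-Exo 1 and hucMSC-Exo 2. These values rest on 40 to 69 cells per library, and on 1 UMI in Control 1.

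In cells with over 3000 detected genes, *Cxcl12* was at 4.43 and 2.34 CPM in the control libraries and at 6.05 and 37.8 CPM in the hucMSC-Exosomes libraries. The order was the opposite in cells with over 10% mitochondrial UMIs, where *Cxcl12* was at 99.7 and 51.4 CPM in the control libraries and at 23.2 and 9.53 CPM in the others, from 1 to 10 UMIs per library. The difference was not tested in either case.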

How the results depend on the processing

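Between the hucMSC-Exosomes and control groups, member values (log2 changes) kept their direction without passing in 141 refits and turned in 13. In the other 2, *Cxcl2* and *Cxcl3* passed in lymphocyte-like cells without the filter on low counts (0.99 and 1.31). In neutrophil-like cells *Cxcl1* was -1.25 to 1.07 on leaving out each library (1.07 without Control 2), *Cxcl3* -0.30 (without Control 1) to 3.98, and *Cxcr2* -0.18 (without hucMSC-Exo 2) to 0.69. In phagocyte-like cells *Cxcl1* was -1.87 to 0.73 (0.09 without Control 1, 0.73 without hucMSC-Exo 2) and 0.55 without the highest doublet scores, *Cxcl2* -0.014 (without hucMSC-Exo 1) to 1.27, and *Cxcr4* -0.63 to 0.047 (without Control 2). In lymphocyte-like cells *Cxcl1* was -0.93 to 0.59 (without Control 2), *Cxcl3* -0.82 (without hucMSC-Exo 2) to 5.2, and *Cxcr4* -0.28 to 0.18 (0.14 without Control 2, 0.18 without hucMSC-Exo 1) and 0.17 at a Leiden resolution of 1.6. The number of genes called without the filter was 3 in neutrophil-like, 31 in phagocyte-like and 84 in lymphocyte-like cells, and DESeq2 called 2 in the last. Leaving out each library in turn gave 0 to 10 genes in neutrophil-like cells (10 without Control 1, 3 without hucMSC-Exo 2), 0 to 2 in phagocyte-like cells (1 without hucMSC-Exo 1, 2 without hucMSC-Exo 2) and 0 to 26 in lymphocyte-like cells (20 without Control 2, 13 without hucMSC-Exo 1, 26 without hucMSC-Exo 2), where the lone library of a group was assumed to vary like the others. The cause of these changes was not tested.

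Replicate numbers were shared by the groups but did not pair the mice, with correlations of deviations of -0.01, -0.26 and 0.16 in neutrophil-like, phagocyte-like and lymphocyte-like cells. A replicate block called 0, 0 and 1 genes. The crossed pairing, chosen after seeing the data, called 11 genes in phagocyte-like cells.

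Between neutrophil-like and phagocyte-like cells, *Cxcl2*, *Cxcr2* and *Cxcr4* kept their direction and passed in all 12 refits. *Cxcl1* turned to 0.46 with no upper limit on genes, where a cluster of 689 cells was not among the phagocytes and the cause was not tested, and was -0.70 without hucMSC-Exo 1 (edgeR adjusted p = 0.109). *Cxcl3* passed with size factors of the RLE kind (0.42), without Control 1 (0.66), without hucMSC-Exo 1 (0.77), without the highest doublet scores (0.79) and with no upper limit on genes (3.19). The number of genes called stayed between 3350 and 5061. The median of all genes moved from -0.24 to -0.38 under RLE and -0.40 under DESeq2. Control 1 and hucMSC-Exo 1, with 56 and 93 neutrophil-like cells, limit every neutrophil comparison.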

Other observations

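Neutrophil-like cells can also be described by the proportion of their receptors, noticed in these data after the levels had been seen. For each UMI of *Cxcr2* they held 1.6, 1.01, 0.754 and 0.539 UMIs of *Cxcr4*, in the same library order as above. On the log2 scale the means were 0.34 ± 0.47 (control) and -0.65 ± 0.34 (hucMSC-Exosomes; SD, n = 2), which differ by -0.99, and both control libraries were above both others. Tested by exact permutation (two-sided), the 4 values gave p = 0.333, the smallest that 2 libraries against 2 allow. Any full separation of the groups gives this value, so the test cannot decide. Groups did not overlap for 25.5% of single genes tested in these cells, *Cxcr4* among them. The share of such proportions that separate was not computed. The order did not hold in every subcluster. Control 2 was above hucMSC-Exo 2 in *Bag1*-led (4.10 and 0.960), *Gclm*-led (1.24 and 0.320), *Fam162a*-led (0.429 and 0.228), *Bcl2a1d*-led (1.70 and 1.58), *Cmpk2*-led (1.17 and 0.604) and *Syne1*-led cells (0.983 and 0.667), but below it in *Nfkbiz*-led (0.360 and 0.548) and *Ccpg1*-led cells (0.325 and 0.793). hucMSC-Exo 1 was above Control 2 in *Bcl2a1d*-led (5.0) and *Syne1*-led cells (2.5), which rest on 2 and 4 *Cxcr2* UMIs.

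Interferon-induced genes such as *Ifit3* and *Rsad2* led 92 neutrophil-like cells, together with *Cmpk2*. *Cxcr2* in these cells was at 512 and 748 CPM in Control 2 and hucMSC-Exo 2 and *Cxcl2* at 27884 and 15542.5 CPM.

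Regulatory T cell-like cells held *Cxcl2* at 164, 400.4, 130.5 and 538 CPM in the 4 libraries. In 24 of the 307 cells with at least 5 UMIs of it, macrophage markers summed to 98.9 CPM and neutrophil markers to 83.7 CPM, against 193 and 621 CPM in the 237 cells with no *Cxcl2*, and 1 of the 24 had a high doublet score.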
